A study of Homo sapiens with 6 samples.

Results

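The expression of 10 genes of the BMP and activin branches of the TGF-β superfamily was examined in 2 respiratory cell lines exposed to TGF-β1. The genes were chosen by symbol and were ID1, ID2, ID3, BMP4, GREM1, INHBA, INHBB, FST, FSTL1 and FSTL3. They account for 10 of the 25737 gene entries that were counted in every library, and each symbol had 1 entry. The choice was made with earlier results of these data known. Shares of all genes are given beside counts of the 10 as description, not as a test of the set. A549 is a human lung carcinoma epithelial line and BEAS-2B is a human bronchial epithelial line, both labeled as wild type. Each line was left untreated or was exposed for 48 h to TGF-β1 at 1 or 5 ng/mL, with 1 library of 3′-mRNA sequencing for each of the 6 conditions. The treated cells were kept in medium with 1% fetal bovine serum during the exposure, and the medium of the untreated cells is not given in the sources used here. With 1 library per condition no spread between cultures was measured, so the comparisons within a line carry no p-value, and tests were made only across both lines. Whether a value of a bulk library reflects fewer cells with the transcript or less transcript per cell cannot be told apart.

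TGF-β1, activins and bone morphogenetic proteins (BMPs) are related dimeric ligands that act through pairs of type I and type II receptor kinases. Activins share the SMAD2 and SMAD3 branch with TGF-β1, whereas BMPs act through SMAD1, SMAD5 and SMAD9. The ID genes are classical targets of the BMP branch, and their proteins hold the E proteins, a group of helix-loop-helix transcription factors, away from DNA. Secreted antagonists limit both branches. Follistatin (FST) and FSTL3 trap activins, and gremlin 1 (GREM1) traps BMP2, BMP4 and BMP7. In lung tissue these ligands and antagonists are known for their part in branching, epithelial repair and fibrosis.

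Total counts ranged from 4120624 to 7841350 per library, and the deepest library was A549 at 1 ng/mL. Of the 6 listed symbols of TGF-β target genes 5 were found, including PMEPA1 and TGFBI, and the higher dose had 4 upregulated in A549 and 5 in BEAS-2B cells. The epithelial markers EPCAM and CDH1 had 49 and 640 counts in untreated A549 cells and 2 and 8 counts at 5 ng/mL. In BEAS-2B cells EPCAM had 0 counts in every library and CDH1 had at most 2, so these defining markers were at or near 0 in a line labeled epithelial, although KRT8 and KRT18 were counted in all 6 libraries. The endothelial and the leukocyte markers, 3 genes each, summed to at most 4 counts in any library.

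The RefSeq promoter table of GRCh38.p14 held all 10 genes. The stretches of 3 of them are shown, because INHBA and INHBB moved furthest in opposite directions in A549 cells and ID1 is the best known BMP target of the group. Each is read 5′ to 3′ on the strand of the gene and lies before the RefSeq start of the gene, which for INHBA is inside the longer span that GENCODE gives, and bases that an annotated exon covers were left off. Capitals mark matches on either strand to the motifs searched, and the overlap of a TATAAA match on both strands is printed as 1 run.
INHBA promoter, chr7:41703109-41703340, minus strand: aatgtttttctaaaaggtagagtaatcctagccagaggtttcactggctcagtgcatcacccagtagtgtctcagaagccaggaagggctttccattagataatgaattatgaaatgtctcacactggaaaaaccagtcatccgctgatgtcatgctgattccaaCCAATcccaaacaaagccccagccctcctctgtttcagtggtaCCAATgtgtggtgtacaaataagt
INHBB promoter, chr2:120345886-120346135, plus strand: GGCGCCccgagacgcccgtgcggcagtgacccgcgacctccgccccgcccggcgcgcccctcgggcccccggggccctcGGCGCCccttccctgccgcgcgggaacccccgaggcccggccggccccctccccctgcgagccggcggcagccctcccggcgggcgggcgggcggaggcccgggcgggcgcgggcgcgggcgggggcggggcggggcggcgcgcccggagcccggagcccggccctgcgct
ID1 promoter, chr20:31605039-31605282, plus strand: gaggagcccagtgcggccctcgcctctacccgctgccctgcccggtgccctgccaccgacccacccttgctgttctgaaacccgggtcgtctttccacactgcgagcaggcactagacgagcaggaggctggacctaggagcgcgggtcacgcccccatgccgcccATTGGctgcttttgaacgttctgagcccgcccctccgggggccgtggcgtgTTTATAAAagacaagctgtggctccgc
The INHBA stretch had a GC content of 44.0% and the INHBB stretch one of 89.6%, against a median of 58.0% over 35116 RefSeq windows, of which 5% lay below 34.4% and 5% above 78.4%. The capitals in the INHBA stretch are 2 CCAAT matches, and a TATAAA match 11 bases before the INHBA start lies in the bases left off. Those in the INHBB stretch are 2 GGCGCC matches, and those in the ID1 stretch are a CCAAT match 84 bases before the start and a TATAAA match 31 bases before it. Among all windows, 32.0% held CCAAT, 16.4% held GGCGCC and 10.7% held TATAAA in the 250 bases before the start. CAGAC, a SMAD-binding core that 38.0% of windows held, was matched before ID3, BMP4 and GREM1 and not in the windows of INHBA, INHBB and ID1. TGANTCA and TGACGTCA were also searched and were held by 6.57% and 1.65% of windows, and FST alone among the 10 genes had 1 such match, to TGANTCA. These matches describe the letters of the windows only.

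To compare treated with untreated cells, counts were scaled to a common effective library size, and a gene was taken as differentially expressed (DEG) with the fold change (FC) limit of 2, in either direction, and the normalized data (ND) limit of 7 that the study names. How the study normalized its values and in which libraries ND had to reach 7 is not given in the sources used here, so ND was taken as log2 of the normalized count plus 1 and had to reach 7 in at least 1 of both libraries. An ND value of 7 corresponds to a normalized count of 127, or about 24.7 CPM (counts scaled to the library total). Read in this way, the limits gave 2366 DEGs in A549 and 1277 in BEAS-2B cells at 5 ng/mL. The paper reports fewer genes for each line under the limits it names. The DEGs here are therefore not the same calls as those of the paper, and the reason for the gap was not tested. At 5 ng/mL, 6 of the 10 genes were DEGs in A549 cells, with INHBA, FSTL1 and FSTL3 upregulated and ID1, BMP4 and INHBB downregulated. Among all 7115 genes that passed the ND minimum there, 16.1% were upregulated and 17.1% downregulated. In BEAS-2B cells, 8 of the 10 were DEGs at 5 ng/mL, with INHBA, GREM1 and FSTL3 upregulated and ID1, ID2, ID3, BMP4 and FSTL1 downregulated, against 7.33% and 11.6% of 6735 genes. At 1 ng/mL the same 6 genes were DEGs in A549 cells, where 10.9% of 7007 genes were upregulated and 12.6% downregulated. At 1 ng/mL the DEGs of BEAS-2B cells were those at 5 ng/mL without ID1, 7 genes in all, against 5.66% upregulated and 9.13% downregulated of 6681 genes. With the ND minimum required in both libraries, 3 of the 10 genes were DEGs in A549 and 2 in BEAS-2B cells at 5 ng/mL. The share of all genes under that rule is not given here, and the shares above do not apply to it. All 10 genes are accounted for: the ND minimum was passed by 9 in A549 and by 8 in BEAS-2B cells at either dose, the exceptions being GREM1 in A549 cells and INHBB and FST in BEAS-2B cells. Both doses of a line were set against the same untreated library. The split of calls over all genes depended on the scaling, since with total counts in place of the TMM scaling the upregulated share of all DEGs at 5 ng/mL went from 48.4% to 33.8% for A549 and from 38.7% to 26.9% for BEAS-2B cells. The same change at 1 ng/mL was from 46.5% to 32.2% and from 38.3% to 27.3%.

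**Figure D1:**
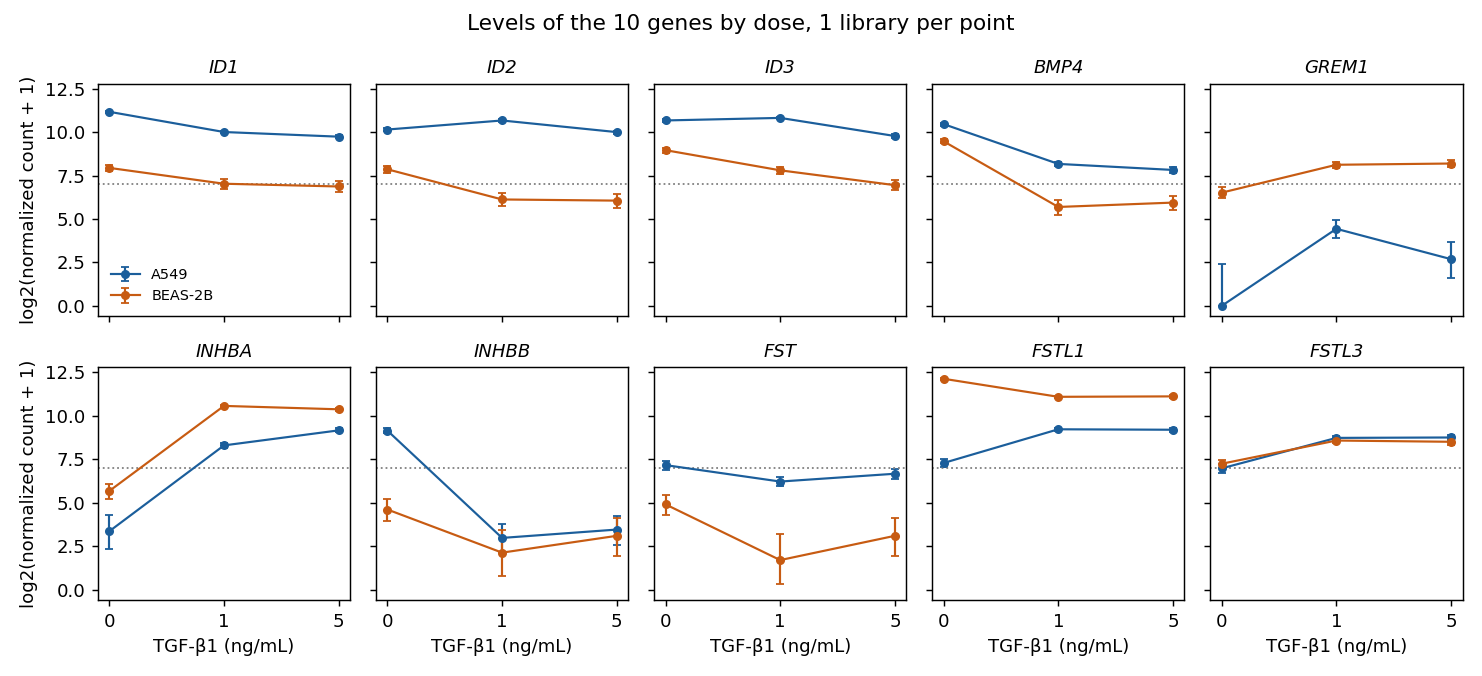
Level of each of the 10 genes, as log2 of the normalized count plus 1, at 0, 1 and 5 ng/mL TGF-β1 in A549 (blue) and BEAS-2B (orange) cells, with 1 library per point, 95% counting intervals as bars and the ND minimum of 7 as a dotted line. INHBA climbs in both lines, BMP4 drops in both, INHBB drops from 567 to 9.98 normalized counts in A549 cells, and FSTL1 moves in opposite directions.

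INHBA encodes the βA subunit, whose dimer is activin A, and spans 41667168 to 41705834 of chromosome 7, minus strand (GRCh38). It had 8, 457 and 631 counts at 0, 1 and 5 ng/mL in A549 cells and 45, 1351 and 1054 counts in BEAS-2B cells. The untreated library was the lowest of its line in both, and the step from it was far larger than that between the doses. On the normalized scale INHBA was upregulated 61.8-fold at 5 ng/mL in A549 cells (95% CI 31.2 to 144) and 26.4-fold in BEAS-2B cells (19.6 to 36.5). The intervals of ratios and shares are exact Clopper-Pearson limits, those of levels exact Poisson limits and those of quotients between the lines exact conditional limits. All account for counting error alone, because each condition had 1 library. PCR copies of a molecule were not marked and count as separate reads, so the limits may be too narrow even for counting error. At 1 ng/mL the rises were 33.9-fold (17.0 to 78.9) and 30.3-fold (22.5 to 41.7). Ranked by FC among all genes that passed the ND minimum, INHBA stood at place 14 of 7115 (A549) and 8 of 6735 (BEAS-2B) for the higher dose and at place 12 of 7007 and 7 of 6681 for the lower. The antisense gene INHBA-AS1 overlaps it and had 0 counts in all 6 libraries.

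INHBB encodes the βB subunit of activin B and spans 120346143 to 120351808 of chromosome 2, plus strand. In A549 cells it had 489, 10 and 11 counts at 0, 1 and 5 ng/mL, and both treated libraries were low. It was downregulated 56.8-fold at 5 ng/mL (31.4 to 114) and 82.5-fold at 1 ng/mL (44.5 to 173), which placed it 25th and 7th from the lowest FC. In BEAS-2B cells it had 21, 3 and 6 counts, below the ND minimum in every library. Its ratio to control there was 0.323 at 5 ng/mL (0.107 to 0.826) and 0.144 at 1 ng/mL (0.0275 to 0.483), on counts too few to size it closely.

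The activin subunits thus exchanged places in A549 cells. Within the A549 libraries INHBA made up 1.61% of the counts of both subunits without TGF-β1 (0.697 to 3.15%), 97.9% at 1 ng/mL and 98.3% at 5 ng/mL (97.0 to 99.1%). In BEAS-2B cells its share was already 68.2% without TGF-β1 (55.6 to 79.1%) and 99.8% and 99.4% with it. The summed normalized count of both subunits in A549 cells was 576, 321 and 582 at 0, 1 and 5 ng/mL, so the level at 5 ng/mL was close to that of the control while its makeup was not. In BEAS-2B cells the sum went from 73.6 to 1524 and 1335. These shares need no scaling between libraries and were chosen after the values were seen. They compare counts from transcript ends, which are not divided by length, and how evenly the 3′ ends of both genes are captured was not tested.

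**Figure D2:**
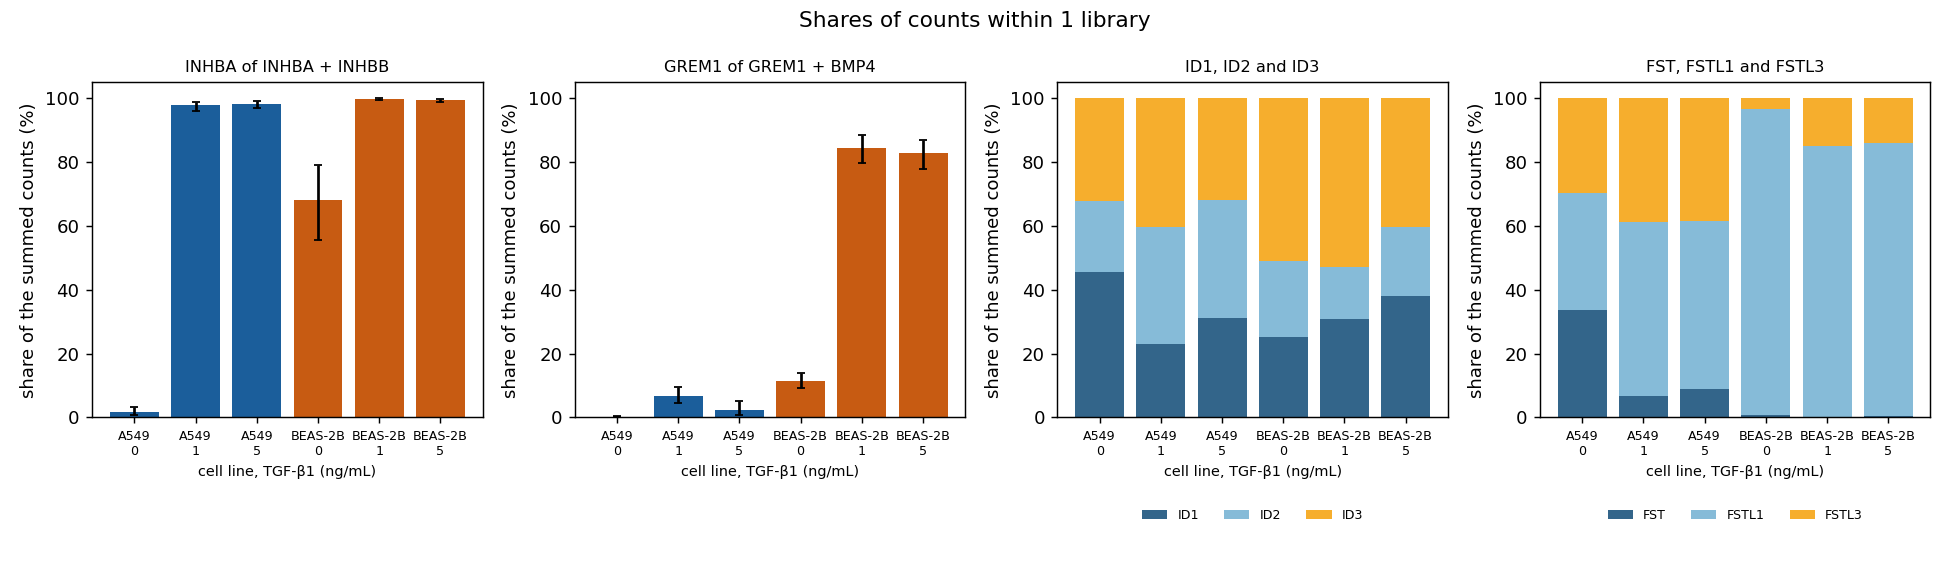
Shares of the summed counts within each of the 6 libraries, in percent, by cell line and TGF-β1 dose in ng/mL: INHBA among both activin subunits and GREM1 beside BMP4 (A549 blue, BEAS-2B orange, bars with 95% Clopper-Pearson intervals), then the makeup of the 3 ID genes and of the 3 follistatin family genes (stacked). INHBA goes from 1.61% to 98.3% in A549 cells and GREM1 from 11.3% to 82.8% in BEAS-2B cells at 5 ng/mL.

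Of the follistatin family, FSTL3 was upregulated in both lines. FSTL3 encodes a secreted binder of activins and spans 676365 to 683399 of chromosome 19, plus strand. It had 108, 617 and 475 counts in A549 and 135, 339 and 288 counts in BEAS-2B cells at 0, 1 and 5 ng/mL. The untreated lines could not be separated by counting error in this gene, with a ratio of A549 to BEAS-2B of 0.831 (0.639 to 1.08), and both treated libraries of each line were above their control. The rise at 5 ng/mL was 3.44-fold in A549 (2.79 to 4.28) and 2.41-fold in BEAS-2B cells (1.96 to 2.98), and at 1 ng/mL it was 3.39-fold and 2.53-fold. The doses could not be separated by counting error in either line.

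FST, the follistatin gene, spans 53480409 to 53487134 of chromosome 5, plus strand, and was not a DEG in any treated library. It had 123, 107 and 111 counts in A549 cells, which after scaling for the deeper treated libraries gave ratios to control of 0.516 at 1 ng/mL (0.394 to 0.674), which met the FC limit with total counts at a log2 difference of -1.11, and 0.707 at 5 ng/mL (0.542 to 0.921). In BEAS-2B cells it had 26, 2 and 6 counts and stayed under the ND minimum. Its ratio there at 5 ng/mL was 0.261 (0.0877 to 0.647). The activin antagonists FST and FSTL3 therefore lay on opposite sides of their controls in both lines, with only the FSTL3 rise meeting the criteria.

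FSTL1 encodes a secreted glycoprotein with a follistatin-like domain and spans 120392293 to 120451253 of chromosome 3, minus strand. It was the most abundant of the 10 genes in BEAS-2B cells, where it had 4024, 1942 and 1765 counts at 0, 1 and 5 ng/mL, and it had 134, 870 and 647 counts in A549 cells. The lines began far apart and drew nearer, as the A549 level climbed and the BEAS-2B level dropped. FSTL1 was upregulated 3.78-fold at 5 ng/mL (3.13 to 4.59) and 3.85-fold at 1 ng/mL (3.21 to 4.65) in A549 cells. In BEAS-2B cells it was downregulated 2.02-fold (1.91 to 2.14) and 2.05-fold (1.95 to 2.17), just past the FC limit. That call was lost with upper quartile scaling at both doses and with DESeq2 size factors, a low-count filter or thinned libraries at 5 ng/mL, where the log2 difference ranged from -1.14 to -0.95. FSTL1 was the only one of the 10 genes that was a DEG in opposite directions in both lines. Its ratio to control at 5 ng/mL in A549 cells was 7.63 times that in BEAS-2B cells (6.27 to 9.34), and 7.90 times at 1 ng/mL (6.53 to 9.63). The makeup of the family moved with it. FST made up 33.7%, 6.71% and 9.0% of the summed counts of the family at 0, 1 and 5 ng/mL in A549 cells and under 1% in all BEAS-2B libraries, while FSTL3 went from 3.23% to 14.8% and 14.0% in BEAS-2B cells.

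**Figure D3:**
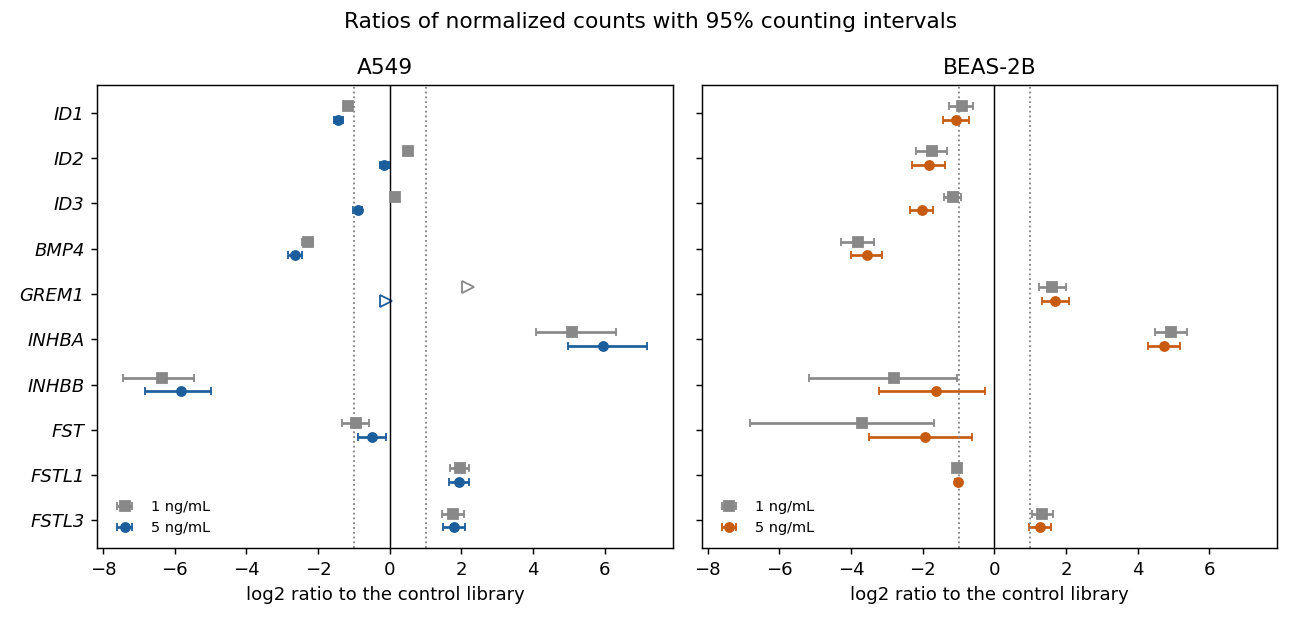
Ratio of the normalized count in treated cells to that of the untreated library of the same line, on a log2 axis, for 1 ng/mL (squares) and 5 ng/mL (circles) with 95% counting intervals as bars and dotted lines at 2-fold. The open triangles for GREM1 in A549 cells mark the lower limits of the exact intervals, since its untreated library had 0 counts, and that of 5 ng/mL lies below 1-fold. FSTL1 lies to the right of 0 in A549 and to the left in BEAS-2B cells.

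BMP4, a ligand of the BMP branch, was downregulated in both lines at both doses. The gene spans 53949736 to 53958761 of chromosome 14, minus strand. It had 1212, 417 and 248 counts in A549 and 634, 45 and 48 counts in BEAS-2B cells at 0, 1 and 5 ng/mL. Every treated library was far below the control of its line. At 5 ng/mL the fall was 6.24-fold in A549 (5.44 to 7.18) and 11.7-fold in BEAS-2B cells (8.72 to 16.0), and at 1 ng/mL it was 4.90-fold (4.38 to 5.49) and 14.0-fold (10.3 to 19.3). BEAS-2B cells gave place 27 from the lowest FC among 6735 genes at 5 ng/mL and place 13 of 6681 at 1 ng/mL, whereas A549 cells gave places 251 and 175. BMP4 fell further in BEAS-2B than in A549 cells, by a factor of 1.87 at 5 ng/mL (1.35 to 2.65) and 2.85 at 1 ng/mL (2.06 to 4.02), both beyond counting error.

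GREM1, which encodes the BMP antagonist gremlin 1, spans 32717974 to 32745107 of chromosome 15, plus strand. It had 81, 246 and 231 counts in BEAS-2B cells at 0, 1 and 5 ng/mL, and both treated libraries were above the control. It was upregulated 3.22-fold at 5 ng/mL (2.49 to 4.20) and 3.06-fold at 1 ng/mL (2.37 to 3.99). In A549 cells it had 0, 30 and 6 counts and did not reach the ND minimum. A count of 0 in the untreated library leaves room for 3 counts, or 0.724 CPM. By the exact interval the level was at least 4.53-fold higher at 1 ng/mL, whereas the lower limit at 5 ng/mL was 0.922, so that library could not be separated from the control. The library at 1 ng/mL was the highest for GREM1 among the A549 libraries only. It was the highest of all libraries for all 3 fibroblast markers, with 22 counts of PDGFRA, 53 of DCN and 15 of LUM, or 11.5 CPM in sum. The other A549 libraries had 2.41 and 3.28 CPM of this sum, with LUM at 0 in the untreated one. The BEAS-2B libraries, each with more GREM1 counts, had between 0 and 1.46 CPM, with PDGFRA at 0 in all 3. The part of these transcripts in the GREM1 counts was not tested.

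BMP4 and GREM1 reversed their order by counts in BEAS-2B cells, and other ligands and antagonists are not part of this share. Of the summed counts of GREM1 and BMP4, GREM1 made up 11.3% without TGF-β1 (9.10 to 13.9%), 84.5% at 1 ng/mL (79.9 to 88.5%) and 82.8% at 5 ng/mL (77.8 to 87.0%). In A549 cells the share was 0%, 6.71% and 2.36%, so BMP4 remained the larger count in all 3 libraries. These are counts of transcript ends, and how evenly the 3′ ends of BMP4 and GREM1 are captured was not tested.

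All 3 ID genes were downregulated in BEAS-2B cells at the higher dose, whereas ID1 alone met the criteria in A549 cells. ID1 spans 31605283 to 31606515 of chromosome 20, plus strand. It had 1981, 1491 and 938 counts in A549 and 219, 115 and 92 counts in BEAS-2B cells at 0, 1 and 5 ng/mL. On the normalized scale, where all libraries are brought to 1 effective size, each treated library was lower than its control. The fall at 5 ng/mL was 2.70-fold in A549 (2.49 to 2.92) and 2.11-fold in BEAS-2B cells (1.65 to 2.72). At 1 ng/mL it was 2.24-fold in A549 cells, and the ratio in BEAS-2B cells was 0.530 (0.419 to 0.667), which missed the FC limit. At 5 ng/mL the ratio to control in A549 cells was 0.782 times that in BEAS-2B cells (0.602 to 1.02), not separable by counting error. With total counts or upper quartile scaling this interval no longer reached 1.

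ID2 spans 8678845 to 8684453 of chromosome 2, plus strand. It had 977, 2363 and 1125 counts in A549 cells and 207, 61 and 52 counts in BEAS-2B cells. The BEAS-2B libraries with TGF-β1 were both low, whereas the A549 library at 1 ng/mL was the highest of its line and that at 5 ng/mL was near the control. The fall in BEAS-2B cells was 3.53-fold at 5 ng/mL (2.59 to 4.87) and 3.36-fold at 1 ng/mL (2.52 to 4.55). In A549 cells the ratio was 1.43 at 1 ng/mL (1.33 to 1.55) and 0.902 at 5 ng/mL (0.827 to 0.983), neither a DEG. The overlapping antisense gene ID2-AS1 had at most 21 counts in any library.

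ID3 spans 23557918 to 23559794 of chromosome 1, minus strand. It had 1403, 2619 and 963 counts in A549 cells and 445, 197 and 97 counts in BEAS-2B cells. The BEAS-2B level went down at each dose, by 2.24-fold at 1 ng/mL (1.89 to 2.66) and by 4.06-fold at 5 ng/mL (3.25 to 5.11) against the control. In A549 cells the ratio was 1.11 at 1 ng/mL (1.04 to 1.18), which turned to a log2 difference of -0.02 with total counts, and 0.537 at 5 ng/mL (0.495 to 0.584). The latter missed the FC limit at a log2 difference of -0.89 and met it with total counts at -1.10.

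The summed normalized count of the 3 ID genes was 5053, 4447 and 2745 in A549 cells and 972, 420 and 304 in BEAS-2B cells at 0, 1 and 5 ng/mL. Their makeup also changed. ID1 held 45.4% of the ID counts of untreated A549 cells (43.9 to 46.9%), 23.0% at 1 ng/mL and 31.0% at 5 ng/mL, while ID2 went from 22.4% to 36.5% and 37.2%. In BEAS-2B cells the ID1 share was 25.1%, 30.8% and 38.2% and that of ID3 was 51.1%, 52.8% and 40.2%. At 5 ng/mL the fall was deeper in BEAS-2B than in A549 cells by a factor of 3.18 for ID2 (2.30 to 4.45) and 2.18 for ID3 (1.72 to 2.79).

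To find changes that both lines shared, each dose was set against control over both lines, with the cell line as a block. This edgeR quasi-likelihood fit was added after the values were seen and leaves 2 residual degrees of freedom, and its spread is that between the lines, not between cultures of 1 condition. At 5 ng/mL 6 of the 10 genes had an adjusted p under 0.05, against 10.5% of 13236 genes tested. INHBA was higher by 5.25 on the log2 scale (adjusted p = 0.00288) and FSTL3 by 1.52 (adjusted p = 0.0143). BMP4 fell by 3.13 (adjusted p = 0.00558), INHBB by 4.43 (adjusted p = 0.0276), ID3 by 1.48 (adjusted p = 0.0354) and ID1 by 1.27 (adjusted p = 0.0191). At 1 ng/mL INHBA, FSTL3, BMP4 and INHBB passed, against 2.76% of genes. The INHBB values rest mainly on A549 cells, with log2 differences of -5.69 at 5 ng/mL and -6.17 at 1 ng/mL. In BEAS-2B cells these were -1.51 and -2.48, on counts under the ND minimum, so a fall shared in size is not shown. These counts rested on single libraries, since leaving out 1 library left 1 in its dose group. Among the 10 and among all genes, fewer passed without either library of the dose and more without either untreated one. Without the A549 or the BEAS-2B library of 5 ng/mL, the log2 difference at that dose was 4.77 or 5.87 for INHBA. It was -3.22 or -3.02 for BMP4, -2.05 or -5.55 for INHBB and -1.71 or -1.24 for ID3. For FSTL3 it was 1.39 or 1.68 and for ID1 -1.12 or -1.36.

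Whether TGF-β1 acted differently in the lines was tested with the term for cell line by treatment, taking both doses as 1 treated group. This fit leaves 2 residual degrees of freedom, and its spread comes from the doses, not from cultures of 1 condition. A step between the doses, such as that of ID3 in A549 cells, therefore counts as spread, and each untreated group is 1 library. A difference here means an adjusted p under 0.05 against that spread. The effect differed in 3 of the 10 genes, against 1.43% of 13236 genes. In BEAS-2B relative to A549 cells it was lower by 2.96 on the log2 scale for FSTL1 (edgeR adjusted p = 0.00217), lower by 2.01 for ID2 (adjusted p = 0.0430) and higher by 3.98 for INHBB (adjusted p = 0.0349), which had at most 21 counts in BEAS-2B cells. The INHBB call was lost without BEAS-2B at 5 ng/mL, where its difference was 3.34. Without A549 at 5 ng/mL the INHBB difference was 4.25, and more genes passed, among the 10 and among all genes. BMP4 and ID3 did not pass, at adjusted p = 0.166 and 0.332.

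To compare the doses, 5 ng/mL was set against 1 ng/mL. In A549 cells 1 of the 10 genes was a DEG, against 3.4% of 6467 genes in either direction. This was ID3, which fell 2.06-fold (1.91 to 2.22). ID2 at 0.629 (0.585 to 0.675), BMP4 at 0.785 (0.668 to 0.921) and ID1 at 0.831 (0.765 to 0.902) were also below 1 beyond counting error, and INHBA stood at 1.82 (1.61 to 2.06), none of them past the FC limit. In BEAS-2B cells 0 of the 10 genes were DEGs, against 0.904% of 6306 genes. Of those of the 10 genes that passed the ND minimum there, ID3 had the ratio farthest from 1, at 0.551 (0.428 to 0.706). INHBA stood at 0.873 (0.805 to 0.947) there, and FSTL1, FSTL3 and GREM1 could not be separated from 1.

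Untreated A549 and BEAS-2B cells differed in 6 of the 10 genes. ID1, ID2, ID3, INHBB and FST were higher in A549 cells and FSTL1 was lower, where 18.1% of 7329 genes were higher and 18.9% lower. ID1 was 9.40-fold higher (8.17 to 10.9), ID2 4.90-fold (4.22 to 5.72) and ID3 3.27-fold (2.94 to 3.65). INHBB was 24.2-fold higher in A549 cells (15.6 to 39.4), and FSTL1 was 28.9-fold higher in BEAS-2B cells (24.3 to 34.6). FST was 4.91-fold higher in A549 cells (3.20 to 7.82), on 123 against 26 counts. BMP4 was 1.99-fold higher in A549 cells (1.80 to 2.19), short of the FC limit by TMM scaling and past it with DESeq2 size factors or upper quartile scaling. GREM1 was at least 20.7-fold higher in BEAS-2B cells by the exact interval, at 81 counts against 0, but under the ND minimum. By normalized count of 3′ ends, not divided by length, the order of the untreated levels was ID1, ID3, BMP4, ID2, INHBB, FSTL1, FST, FSTL3, INHBA and GREM1 in A549 cells, in which the intervals of FSTL1, FST and FSTL3 overlapped, as did those of INHBA and GREM1. In BEAS-2B cells it was FSTL1, BMP4, ID3, ID1, ID2, FSTL3, GREM1, INHBA, FST and INHBB, with overlapping intervals for ID1 and ID2, for INHBA and FST, and for FST and INHBB.

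The other genes of both branches were taken as 8 lists of 65 genes, all of which were found, and most of them were under the ND minimum. Of the 65, 19 passed the ND minimum in A549 and 16 in BEAS-2B cells at 5 ng/mL. There 6 were upregulated and 2 downregulated in A549 cells, against 16.1% and 17.1% of all genes that passed. The median log2 difference was 0.27 over the listed genes that passed and 0.11 over all genes. In BEAS-2B cells 3 were upregulated and 2 downregulated, against 7.33% and 11.6%, with medians of 0.13 and 0.03. At 1 ng/mL 17 passed in A549 cells, with 4 upregulated and 3 downregulated, against 10.9% and 12.6%. In BEAS-2B cells 16 passed, with 3 upregulated and 2 downregulated, against 5.66% and 9.13%. The A549 split at 5 ng/mL became 4 up and 4 down with total counts, which lost GDF11 and TCF4 and added BAMBI and MSX2. In libraries thinned to the smallest total the calls of ACVR2B and FSTL4 at 5 ng/mL and of FSTL4 and MSX2 at 1 ng/mL in A549 cells were lost. These lists are described by their counts only.

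Among the ligands, BMP2 took the opposite course to BMP4 in A549 cells. BMP2 had 33, 352 and 461 counts at 0, 1 and 5 ng/mL, a rise of 6.33-fold (4.42 to 9.33) and 10.9-fold (7.68 to 16.1). In BEAS-2B cells it had 4, 20 and 13 counts, under the ND minimum. Its ratios there were also above 1, at 5.04 (1.69 to 20.3) and 3.67 (1.13 to 15.5). GDF6, another BMP-type ligand, had 20, 201 and 224 counts in BEAS-2B cells and rose 10.1-fold (6.39 to 17.0) and 12.6-fold (8.0 to 21.1). In A549 cells GDF6 had 1, 15 and 24 counts, under the ND minimum, with ratios of 8.89 (1.37 to 374) and 18.8 (3.06 to 773). GDF11, an activin-type ligand that follistatins also bind, rose 2.30-fold in A549 cells at 5 ng/mL (1.84 to 2.91). Among the 16 genes listed as other secreted antagonists, NBL1 rose 2.80-fold at 5 ng/mL in A549 cells (2.25 to 3.50) and had a ratio of 0.686 in BEAS-2B cells (0.596 to 0.789). FSTL4, a follistatin-like gene on that list, fell in A549 cells, from 121 to 15 and 5 counts. Whether FSTL4 acts as an antagonist was not tested.

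Among the 9 receptors, BMPR2 rose in both lines. BMPR2 encodes the main type II receptor for BMPs and had 159, 707 and 1064 counts in A549 and 243, 552 and 672 counts in BEAS-2B cells at 0, 1 and 5 ng/mL. Its rise at 5 ng/mL was 5.24-fold (4.43 to 6.23) and 3.12-fold (2.69 to 3.63), and at 1 ng/mL it was 2.64-fold and 2.29-fold. The activin type II receptor gene ACVR2B rose 3.70-fold in A549 cells at 5 ng/mL (2.53 to 5.57). The activin type I receptor gene ACVR1B fell 2.64-fold there (2.05 to 3.42) and had a ratio of 0.532 in BEAS-2B cells (0.410 to 0.687). The type I receptor gene BMPR1B passed the ND minimum in untreated A549 cells with 112 counts and had 0 counts in untreated BEAS-2B cells. Of the 7 co-receptors, RGMB fell in BEAS-2B cells from 737 to 245 counts at both doses. Of the 5 SMADs of the BMP branch, 3 passed the ND minimum in each line and 0 were DEGs.

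Of the ID partners, TCF4, which encodes an E protein, rose in all 4 comparisons with control, by 2.12-fold (1.70 to 2.66) in A549 and 2.89-fold (2.35 to 3.58) in BEAS-2B cells at 5 ng/mL. The rises at 1 ng/mL were 2.02-fold and 2.06-fold, close to the FC limit. With total counts, TCF4 was a DEG only at 5 ng/mL in BEAS-2B cells. TCF3 and TCF12 passed the ND minimum in both lines and were no DEGs. Of the 5 other BMP target genes, ATOH8 fell in BEAS-2B cells from 341 to 106 and 77 counts, or 3.92-fold at 5 ng/mL (3.05 to 5.09). MSX2 had 171, 143 and 110 counts in A549 cells and lay at the FC limit, with ratios of 0.496 at 1 ng/mL (0.394 to 0.623) and 0.504 at 5 ng/mL (0.393 to 0.644).

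**Figure D4:**
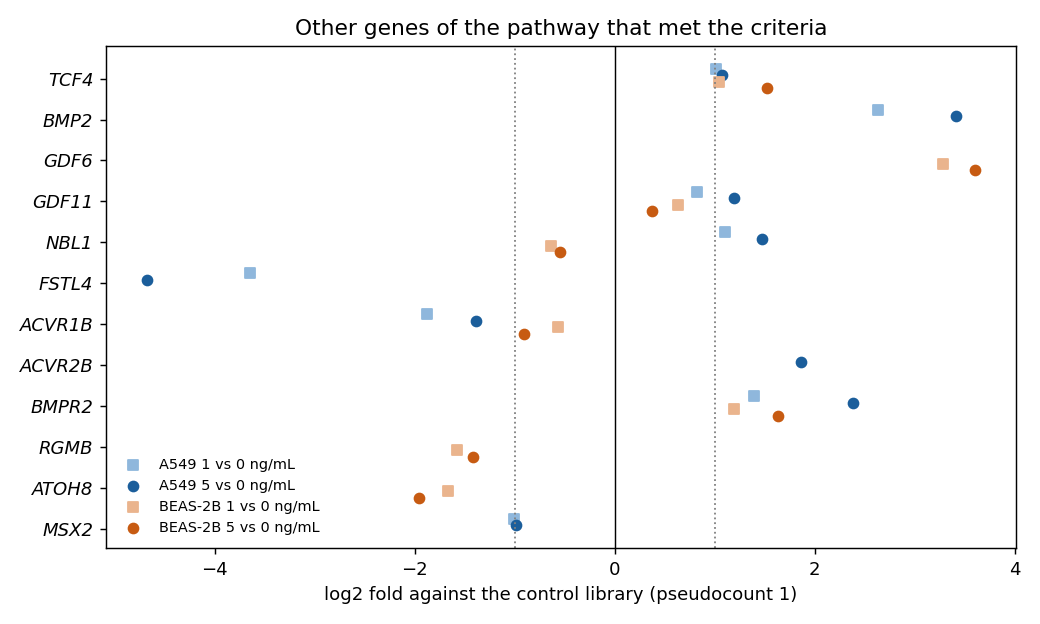
log2 fold of the 12 other pathway genes that were DEGs in at least 1 of the 4 comparisons with control (squares 1 ng/mL, circles 5 ng/mL; A549 blue, BEAS-2B orange), with dotted lines at 2-fold and points only where the ND minimum was met. TCF4 and BMPR2 have all 4 points to the right of the upper line. BMP2 has points in A549 and GDF6 in BEAS-2B cells only, since each stayed under the ND minimum in the other line.

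The genes with folds most like those of INHBA and INHBB, which had the highest and the lowest mean of the 4 log2 differences from control, were sought among 8159 entries by the root mean square difference over those 4 values. LINC01583, MMP2, which encodes a gelatinase, and FGF1, a fibroblast growth factor gene, came nearest to INHBA, at 0.58, 0.77 and 0.82 on the log2 scale. MMP2 had 9, 718 and 848 counts in A549 and 177, 2598 and 2004 counts in BEAS-2B cells at 0, 1 and 5 ng/mL, and LINC01583 and FGF1 had 0 counts in untreated A549 cells. ALDH3A1, SLPI and AQP3 came nearest to INHBB, at 0.79, 0.99 and 1.10. ALDH3A1, an aldehyde dehydrogenase gene, had 4022, 236 and 116 counts in A549 cells, and all 3 had at most 4 counts in any BEAS-2B library, so that likeness rests on A549 cells. Likeness here covers 4 folds that share 2 untreated libraries.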

How the data were processed

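RNA of 6 cultures was sequenced with a QuantSeq 3′-mRNA kit, which reads the 3′ ends of transcripts. The authors deposited raw read counts per gene symbol, 1 file per library, with no normalization. The submitters' processing notes name Bowtie2, bedtools and the build hg19 without versions, and the paper names ExDEGA. The annotation, the use of strand and any filters are not given in the sources used here. Genes that overlap a member on the other strand are therefore named with their counts where the files list them. Groups came from the labels. Total counts were 4144476, 7841350 and 6101351 in A549 and 4252712, 4601813 and 4120624 in BEAS-2B cells at 0, 1 and 5 ng/mL.

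Counts were scaled with TMM factors (edgeR 4.0.16, R 4.3.3) over the 6 libraries to their mean effective size, with a pseudocount of 1 for log2 differences. DEGs needed the study's FC of at least 2 and ND value of at least 7, with ND taken here as log2 of the normalized count plus 1 and needed in at least 1 of both libraries. Ratios carry exact 95% Clopper-Pearson intervals, a count of 0 was taken to allow 3 counts, and the quotient of the treated-to-control ratios of both lines is a conditional odds ratio with an exact interval. No test was made within a line, which has 1 library per condition. Across both lines edgeR's quasi-likelihood test was added after the values were seen, with Benjamini-Hochberg adjustment over 13236 genes kept by filterByExpr, in a fit of cell line plus dose and in one of cell line by treatment. DESeq2, both doses as 1 group and the omission of each library were its alternatives. The steps were tested on simulated data. Python 3.11.15 with scipy 1.17.1, pandas 2.3.3, matplotlib 3.10.9 and numpy 2.4.6 was used for the rest.

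The 10 genes, the pathway lists and the comparisons were chosen with earlier results of these data known. Named were the 10 genes, their overlapping genes, pathway genes that were DEGs in at least 1 comparison with control, and the 3 genes nearest to the highest and the lowest member. Other genes were named after their values were seen. A gene of the TGF-β target list is not reported here. Of the 286 symbols with several entries none was a member. Gene positions came from GENCODE on GRCh38 and promoters from RefSeq on GRCh38.p14, which describe the genes and not the intervals counted on hg19. The 16 alternatives were total counts, TMM within each line, upper quartile factors, size factors of DESeq2 1.42.0, a low-count filter, pseudocounts of 0.1 and 5, 5 changes of the ND minimum or scale, FC limits of 1.5 and 3, entries summed per symbol and libraries thinned to the smallest total.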

Additional observations from a re-analysis of the deposited data

Results flagged for a closer look

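FSTL1 moved in opposite directions in both cell lines at both doses, beyond counting error each time. Its log2 difference from the untreated library was 1.94 at 1 ng/mL and 1.91 at 5 ng/mL in A549 cells, and -1.04 and -1.01 in BEAS-2B cells. With both doses as 1 treated group, the term for cell line by treatment was -2.96 on the log2 scale in BEAS-2B relative to A549 cells (edgeR adjusted p = 0.00217). Its spread comes from the doses, not from cultures of 1 condition.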

How the results depend on the processing

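Of 111 recounts of the DEGs among the 10 genes, 96 stayed within 1.5 times the count reported, and none of the log2 differences that had met the criteria changed sign under the 8 alternatives applied to them. Requiring the ND minimum in both libraries left 3 DEGs in A549 cells at either dose, and 2 at 5 ng/mL and 3 at 1 ng/mL in BEAS-2B cells. On a log2(CPM + 1) scale the ND minimum gave 2 in A549 and 3 in BEAS-2B cells at either dose. An FC limit of 3 left 5 in BEAS-2B cells at 5 ng/mL, 4 at 1 ng/mL, and 0 in A549 cells between the doses. Between the doses an FC limit of 1.5 gave 3 in A549 and 1 in BEAS-2B cells, and no ND minimum gave 2 and 1. The stricter ND rules remove genes that are high in 1 of both libraries. Shares of all genes under the changed ND rules and FC limits are not given here, so these recounts describe the 10 genes alone. The treated-to-control ratio at 5 ng/mL in A549 over that in BEAS-2B cells went for ID1 from 0.782 to 0.742 with total counts and 0.762 with upper quartile factors, where its interval left 1, and for FST from 2.70 to 2.56 with total counts and 2.44 in thinned libraries, where its interval reached 1, and the cause was not tested. Total counts moved the median log2 difference of all genes by -0.25 (5 ng/mL) and -0.19 (1 ng/mL) for A549 and by -0.15 and -0.14 for BEAS-2B cells, and ID3 in A549 cells at 1 ng/mL was measured at 0.15 with TMM scaling and -0.02 with total counts. Genes near the limits, namely ID3 and FST in A549 and FSTL1 and ID1 in BEAS-2B cells, depend on this choice.

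With the cell line as a block, leaving out 1 library in turn gave between 1 and 9 of the 10 genes with an adjusted p under 0.05 at 1 ng/mL and between 2 and 9 at 5 ng/mL, and between 2 and 5 for the term of cell line by treatment. Without the control of 1 line, the contrast with untreated cells comes from the other line, although both lines still inform the step between the doses. FSTL1 thus went from 0.16 (1 ng/mL) and 0.15 (5 ng/mL) on the log2 scale to -1.01 at both doses without untreated A549 cells. It went to 1.94 at both doses without untreated BEAS-2B cells. DESeq2 gave 6 of the 10 genes at either dose, against 6.43% of all genes tested at 1 ng/mL and 14.2% at 5 ng/mL. Both doses as 1 group gave 6, against 14.8%. For the term of cell line by treatment DESeq2 gave -2.91 for FSTL1, -1.95 for ID2 and 4.02 for INHBB on the log2 scale. The labels give no replicate numbers within a condition. Depth limits INHBB and FST in BEAS-2B cells and GREM1 in A549 cells, whose counts under TGF-β1 were 30 or fewer. What separates cultures of 1 condition is unknown here.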
